A study of Mus musculus with 6 samples.

Results

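The 10 genes described here, Pdgfra, Pdgfrb, Dpp4, Cd34, Dpep1, Dpt, Cthrc1, Lrrc17, Itgbl1 and Cercam, are known from fibroblasts. They were chosen by the measured difference between day 4 and day 1 wounds, as fibroblast genes that shifted between the days. They are 10 of the 19938 genes that the array measured through a probe set with a single gene symbol, and each of the 10 was read by 1 probe set. The array, an Affymetrix mouse gene chip, was hybridised with total RNA from back skin of BALB/c mice, which are inbred and albino; all were males of 5 to 6 weeks. The 3 groups were intact skin, wounds on day 1 and wounds on day 4, with 2 arrays each. Each wounded mouse received 2 punch wounds of 4 mm that left the fascia in place, and a biopsy of 8 mm took the wound with the skin around it, so that the wound was 25% of the biopsy area. The labels name no transgene and no treatment beyond the wounding in any group. The labels call the replicates biological without saying whether an array held 1 animal, 1 wound or a pool. The SDs and p-values below therefore measure the spread between these samples. Levels are given as log2 intensities, on which a difference of 1 is a 2-fold change.

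Fibroblasts are the mesenchymal cells that build the collagen-rich matrix of the dermis. After a skin wound they enter the provisional matrix, divide and lay down new collagen, and part of them become contractile myofibroblasts. The dermis holds several kinds of them, in its upper papillary layer, its lower reticular layer, the fascia and around hair follicles, and surface proteins such as the PDGF receptors, DPP4 and CD34 are used to tell these kinds apart. None of the 10 genes is exclusive to fibroblasts. PDGFRB is also carried by pericytes, CD34 by endothelium and by stem cells of the hair follicle bulge, and DPP4 by T cells. In whole biopsies, fewer cells of a type and less RNA per cell cannot be told apart.

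The name under which the genes were collected, genes rising late in wounds, held for part of them. The difference between day 4 and day 1 chose the genes, so it is given as a description without a test. In 8 of the 10 genes both day 4 arrays lay above both day 1 arrays, an order seen in 25.6% of all genes measured. Limma is a linear model with a shared estimate of the spread. By limma, 1.09% of all genes were called higher and 1.14% lower on day 4 than on day 1 (adjusted p under 0.05). With the wound arrays fitted alone, 8 genes were called higher and 9 lower, against 217 and 227 in the full fit. Most calls between the days thus depended on having the intact arrays in the fit. Pdgfra and Pdgfrb overlapped between the days. Dpp4 was higher on day 4 than on day 1 and still below intact skin on both days. The levels fell into 4 patterns: the PDGF receptors were high on both wound days, Dpp4 was low on both, Cthrc1 and Dpt lay above intact skin on both days and highest on day 4, and Lrrc17, Itgbl1, Dpep1, Cercam and Cd34 lay below intact skin on day 1 and above it on day 4.

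**Figure D1:**
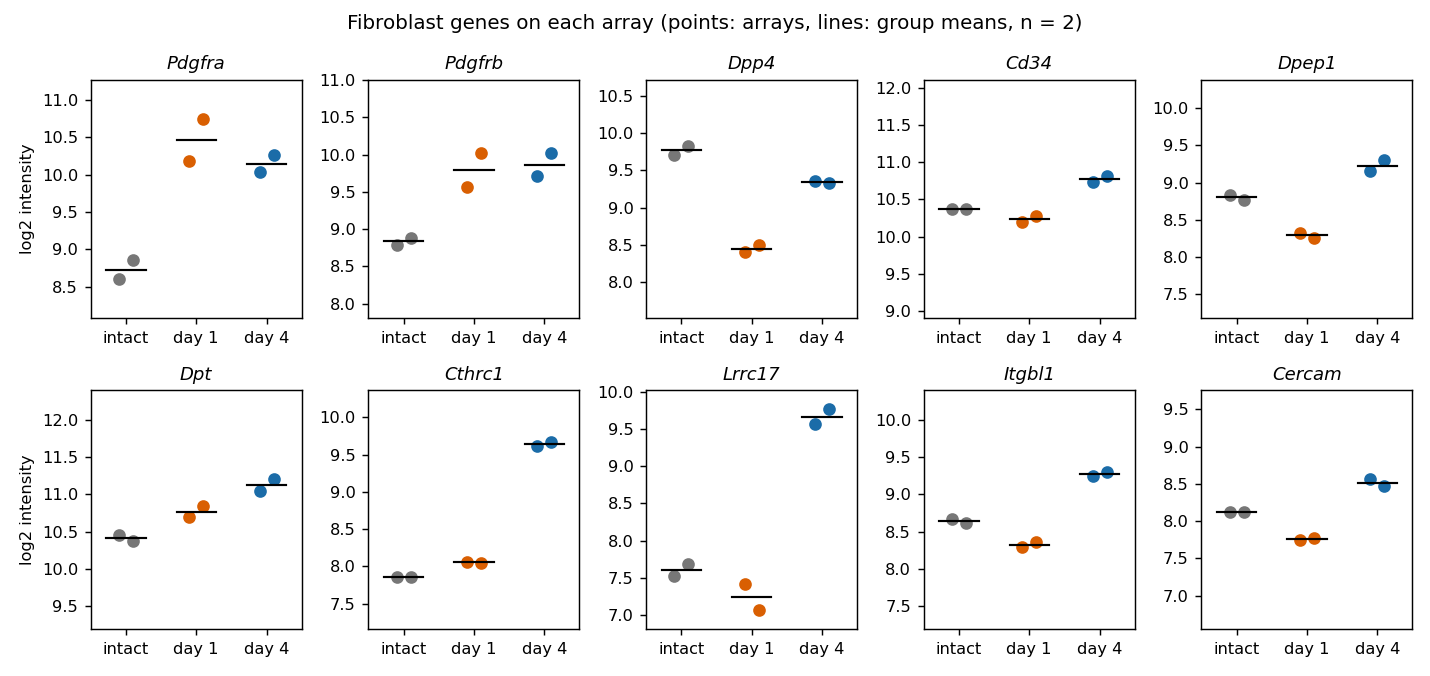
Log2 intensity (vertical axis, the same span in every panel) of the 10 genes in intact skin, day 1 wounds and day 4 wounds. Each point is an array and each line the mean of 2 arrays. Lrrc17 and Cthrc1 stand apart on day 4 at 9.56 to 9.76 and 9.62 to 9.67, while the PDGF receptors are raised on both wound days.

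To show what lies in front of genes of these patterns, the 250 bases before the annotated start of 4 of them are printed 5′ to 3′ on the gene's own strand, from RefSeq on mouse assembly GRCm38.p6: Pdgfra as a gene high on both days, Dpp4 as the gene low on both, and Lrrc17 and Itgbl1 as genes that crossed the intact level. The RefSeq table held such a promoter for 8 of the 10 genes. Capitals mark matches, on either strand, to TGANTCA (the core recognised by AP-1), GGAATG (TEAD factors), CAGACA (SMAD factors), TATAAA and CCAAT, and no matches overlapped each other in these 4 sequences.
Pdgfra, chr5:75152001-75152250, plus strand: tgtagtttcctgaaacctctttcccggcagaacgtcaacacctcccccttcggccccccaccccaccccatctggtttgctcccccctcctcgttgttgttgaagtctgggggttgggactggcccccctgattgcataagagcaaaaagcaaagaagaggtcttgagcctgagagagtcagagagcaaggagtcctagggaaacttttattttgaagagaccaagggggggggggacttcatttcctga
Dpp4, chr2:62412232-62412481, minus strand: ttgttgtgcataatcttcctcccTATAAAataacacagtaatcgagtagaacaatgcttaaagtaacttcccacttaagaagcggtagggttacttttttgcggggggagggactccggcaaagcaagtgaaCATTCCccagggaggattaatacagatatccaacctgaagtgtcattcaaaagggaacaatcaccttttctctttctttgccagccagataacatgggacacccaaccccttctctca
Lrrc17, chr5:21543277-21543526, plus strand: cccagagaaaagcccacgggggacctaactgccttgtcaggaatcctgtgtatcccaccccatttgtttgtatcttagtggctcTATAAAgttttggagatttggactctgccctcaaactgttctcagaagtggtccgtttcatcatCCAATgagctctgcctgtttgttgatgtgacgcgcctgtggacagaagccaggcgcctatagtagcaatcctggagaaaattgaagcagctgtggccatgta
Itgbl1, chr14:123659890-123660139, plus strand: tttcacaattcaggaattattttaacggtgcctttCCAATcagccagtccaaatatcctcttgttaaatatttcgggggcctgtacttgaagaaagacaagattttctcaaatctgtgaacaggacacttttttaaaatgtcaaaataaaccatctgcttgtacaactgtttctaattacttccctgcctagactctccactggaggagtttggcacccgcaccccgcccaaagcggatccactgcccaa
Among the 8 promoters, TGANTCA was found in 0 and CAGACA in 0, against 6.75% and 17.1% of all 32851 promoters of this length in the table. GGAATG was found in 2 of the 8 (Dpp4 and Dpep1, each as its reverse complement CATTCC) against 12.6% of all, TATAAA in 2 (Dpp4 and Lrrc17) against 12.4%, and CCAAT in 2 (Lrrc17 and Itgbl1) against 33.8%. The Pdgfra window held none of the 5 motifs. The GC content ran from 42.4% in Itgbl1 to 67.6% in Cercam, with a median of 52.4% over all promoters. These counts describe the letters of 8 windows, and neither a match nor its lack shows binding or its absence.

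The mean of both wound days was compared with intact skin, a contrast that leaves out the difference between the days but uses the same 4 wound arrays that chose the genes. Here 5 of the 10 genes rose (Pdgfra, Pdgfrb, Cthrc1, Lrrc17 and Dpt) and 1 fell (Dpp4), against 16.9% of all genes called higher and 16.1% called lower by limma at an adjusted p of 0.05. For Lrrc17 and Cthrc1 the call rests on day 4, since neither was called on day 1, and the day 1 arrays of Lrrc17 lay below intact skin, so that its wound and intact arrays overlapped. The counts stayed at 5 and 1 with each of the 6 arrays left out in turn. The median log2 difference was 0.34 over the 10 genes and −0.04 over all genes measured. Cd34, Dpep1, Itgbl1 and Cercam had wound means 0.13, −0.05, 0.16 and 0.02 from intact skin on the log2 scale, and their limma adjusted p-values ran from 0.111 to 0.878. In these 4 genes the day 1 and day 4 arrays lay on either side of the intact arrays, although the day 1 difference of Cd34 was not called.

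On day 1, 3 genes rose against intact skin (Pdgfra, Pdgfrb and Dpt) and 4 fell (Dpp4, Dpep1, Cercam and Itgbl1), where 14.7% of all genes were called higher and 14.6% lower. On day 4, 9 rose and 1, Dpp4, fell, where 14.8% of all genes were called higher and 12.1% lower. Both comparisons share the intact arrays, and each shares its wound arrays with the difference that chose the genes. That choice favours low day 1 and high day 4 values. The adjusted p-values of falls on day 1 and rises on day 4, here and gene by gene below, are therefore likely too small. They describe these genes and are no independent test of a fall followed by a rise. Without intact skin replicate 1 the 9 rises of day 4 became 5, and the 3 rises of day 1 became 1. The 4 falls of day 1 became 2 when day 1 wound replicate 2 or an intact array (replicate 1 or replicate 2) was left out. The fall of Dpp4 on day 4 was not called without day 4 wound replicate 2 (adjusted p = 0.0555) or without intact skin replicate 2 (0.0713).

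**Figure D2:**
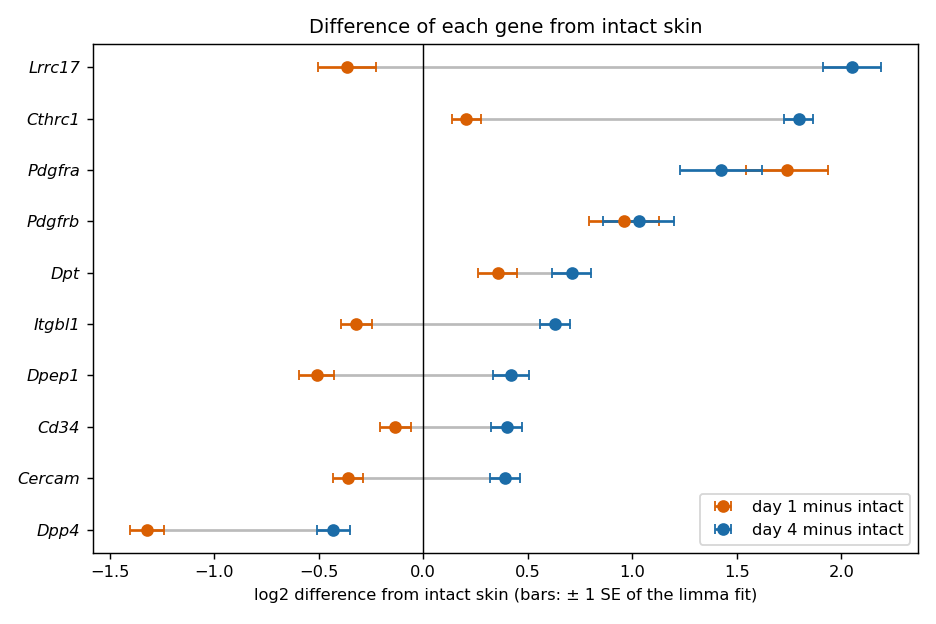
Log2 difference of each gene from intact skin on day 1 and day 4 (horizontal axis), with bars of ± 1 SE from the limma fit and a grey line joining the days. Dpp4 lies left of 0 on both days, and the PDGF receptors, Dpt and Cthrc1 lie right of 0 on both. The other 5 genes cross from left to right, Lrrc17 by the longest step (−0.37 to 2.05).

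The receptors come first. Pdgfra encodes the alpha receptor for platelet-derived growth factors, which drives division and migration of mesenchymal cells. Its log2 intensity was 8.60 and 8.85 on the intact arrays, 10.18 and 10.75 on day 1 and 10.04 and 10.26 on day 4. All 4 wound arrays lay above both intact arrays, and the days overlapped. Pdgfra was 3.34-fold higher on day 1 (log2 difference 1.74, SE 0.20, limma adjusted p = 0.00136) and 2.69-fold higher on day 4 (1.43, SE 0.20, adjusted p = 0.00364). The difference between the days was −0.32, and the SD of the day 1 arrays was 0.40.

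Pdgfrb encodes the beta receptor, which recruits pericytes to vessels and is also present on fibroblasts. It read 8.79 and 8.88 in intact skin, 9.57 and 10.02 on day 1 and 9.71 and 10.02 on day 4. As for Pdgfra, every wound array lay above the intact arrays and the days overlapped. The rises were 1.95-fold on day 1 (log2 difference 0.96, SE 0.17, limma adjusted p = 0.00734) and 2.04-fold on day 4 (1.03, SE 0.17, adjusted p = 0.00692). Without intact skin replicate 1 neither rise of Pdgfrb was called (adjusted p = 0.058 and 0.0584). On both wound days replicate 2 gave the higher value for both receptors.

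The other genes of the PDGF system, taken as a list of ligands and of the receptor-like gene, divided. Of these 5 genes, 2 rose and 0 fell on each wound day, and limma called 0 of them between the days (2 at an unadjusted p under 0.05). Pdgfc, a ligand of the alpha receptor, read 7.42 and 7.57 in intact skin, 8.20 and 8.33 on day 1 and 8.55 and 8.65 on day 4. It rose 1.71-fold on day 1 (limma adjusted p = 0.0017) and 2.15-fold on day 4 (adjusted p = 6.96e-04), without overlap between any of the groups. Pdgfb, which binds both receptors, rose 1.31-fold (adjusted p = 0.0403) and 1.39-fold (adjusted p = 0.0226). Pdgfa, Pdgfd and Pdgfrl were not called on either day, with log2 differences from intact skin between −0.18 and 0.32.

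**Figure D3:**
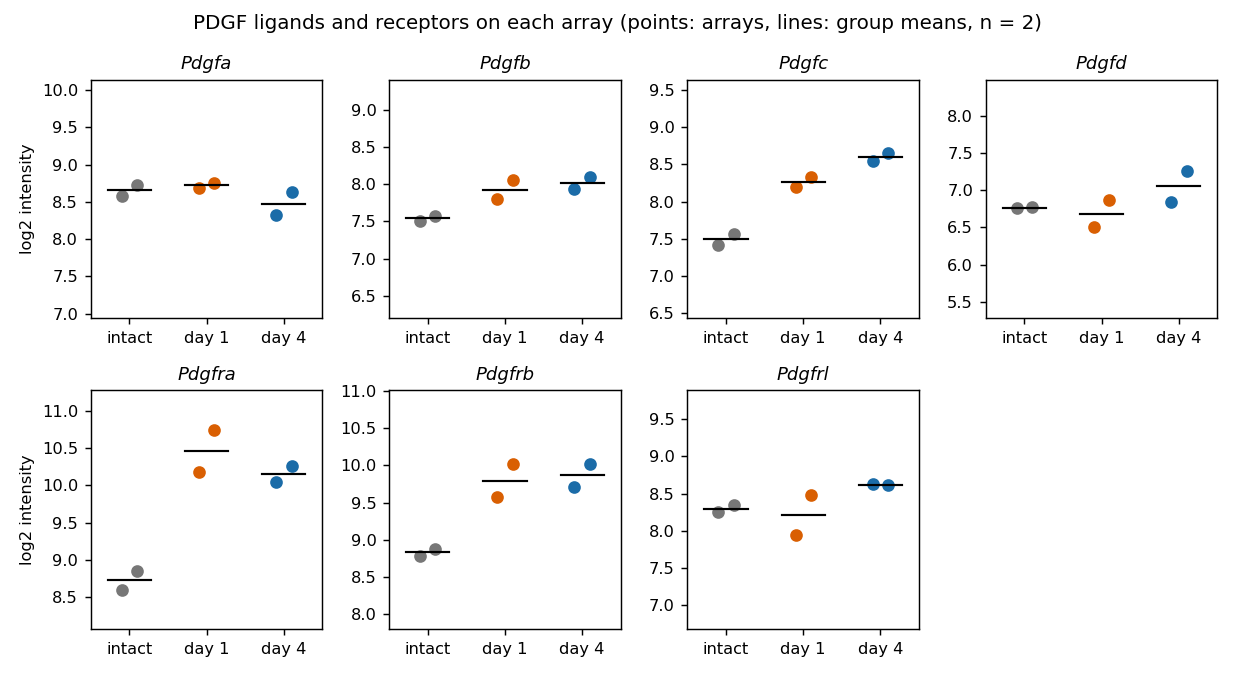
Log2 intensity (vertical axis) of 4 PDGF ligands, both receptors and the receptor-like gene Pdgfrl by group, with a point per array and a line for the mean of 2 arrays. Both receptors, Pdgfb and Pdgfc lie above intact skin on every wound array. The Pdgfa arrays of each wound day overlap the intact arrays.

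Dpp4, Cd34 and Dpep1 encode proteins of the cell surface. DPP4, also named CD26, is a serine peptidase that clips dipeptides from chemokines and hormones and is used as a marker of fibroblast progenitors. Dpp4 read 9.71 and 9.83 in intact skin, 8.40 and 8.50 on day 1 and 9.35 and 9.33 on day 4. The groups did not overlap, with intact skin highest and day 1 lowest. Dpp4 fell 2.5-fold on day 1 (log2 difference −1.32, SE 0.08, limma adjusted p = 1.67e-04) and stood 1.35-fold below intact skin on day 4 (−0.43, adjusted p = 0.0113). From day 1 to day 4 it was 1.85-fold higher, so that day 4 remained between the other groups.

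Among 6 relatives of DPP4, limma called 0 on day 1 (0 at an unadjusted p under 0.05) and 1 higher on day 4. The member called was Fap, the fibroblast activation protein and a close relative of DPP4, which read 6.71 and 6.83 in intact skin, 6.90 and 6.87 on day 1 and 7.29 and 7.59 on day 4 (1.59-fold higher on day 4, adjusted p = 0.00763). Dpp6, Dpp7, Dpp8, Dpp9 and Dpp10 lay within −0.20 to 0.19 of intact skin on the log2 scale on both days. Dpp4 and Fap thus lay on opposite sides of intact skin on day 4. T cells, which also carry DPP4, had 2 of 5 markers called higher and 0 called lower on each day, and their summed linear intensity was 477 to 510 in intact skin, 762 to 814 on day 1 and 695 to 790 on day 4. Cd3d and Cd8a were not called on either day, nor Cd4 on day 1 (adjusted p = 0.341). The part of T cells in the Dpp4 values was not tested.

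CD34 is a sialomucin of progenitor cells. Cd34 read 10.37 on both intact arrays, 10.20 and 10.27 on day 1 and 10.73 and 10.81 on day 4. The groups did not overlap, and the whole range was narrow. The difference from intact skin was −0.14 on day 1 (SE 0.07, limma adjusted p = 0.225) and 0.40 on day 4 (1.32-fold, adjusted p = 0.0107), and the call on day 4 was not made when day 4 wound replicate 2 or an intact array was left out (adjusted p = 0.056 to 0.0666). Endothelial markers, of cells that also carry CD34, rose in 7 of 8 cases on each day and fell in none, with a summed linear intensity of 2156 to 2385 in intact skin, 3721 to 4095 on day 1 and 3202 to 3916 on day 4. Markers of the hair follicle bulge were lower in 2 of 4 cases on day 1 and in 3 on day 4, with sums of 6414 to 6722, 3090 to 4738 and 3734 to 4363. The endothelial sums of the wound days overlapped, and so did the bulge sums. The part of these cells in the values of Cd34 was not tested. Of its relatives, Podxl (podocalyxin), a sialomucin of vessels and podocytes, rose 1.57-fold on day 1 (adjusted p = 0.00484), and Podxl2 was not called on either day.

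DPEP1 is a membrane-anchored dipeptidase. Dpep1 read 8.84 and 8.77 in intact skin, 8.33 and 8.26 on day 1 and 9.15 and 9.30 on day 4, again with no overlap. It fell 1.42-fold on day 1 (log2 difference −0.51, SE 0.08, limma adjusted p = 0.00579) and rose 1.34-fold on day 4 (0.42, SE 0.08, adjusted p = 0.0141), the latter not called when day 4 wound replicate 2 or an intact array was left out (adjusted p = 0.0638 to 0.0833). Its relative Dpep2 ran another course: 6.78 and 7.39 in intact skin, 9.29 and 9.37 on day 1 and 8.77 and 9.13 on day 4, a rise of 4.74-fold on day 1 (adjusted p = 7.14e-04) and of 3.64-fold on day 4 (adjusted p = 0.00186). Dpep3 rose 1.33-fold on day 1 (adjusted p = 0.0155). Of the family, Dpep1 alone had both day 1 arrays below intact skin.

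The remaining genes encode matrix or secreted proteins. DPT, dermatopontin, is a small matrix protein that binds decorin and helps collagen fibrils form. Dpt read 10.45 and 10.38 in intact skin, 10.70 and 10.84 on day 1 and 11.04 and 11.21 on day 4. The groups followed each other without overlap. Dpt rose 1.28-fold on day 1 (log2 difference 0.36, SE 0.09, limma adjusted p = 0.0321) and 1.64-fold on day 4 (0.71, SE 0.09, adjusted p = 0.00315). The day 1 call was not made when a day 1 or an intact array was left out (adjusted p = 0.0518 to 0.16), and the day 4 call was made with any array left out.

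CTHRC1 is a secreted glycoprotein with a short collagen-like stretch that is known from injured arteries and from matrix-producing fibroblasts. Cthrc1 read 7.85 on both intact arrays, 8.06 and 8.05 on day 1 and 9.62 and 9.67 on day 4. Day 4 stood far above both other groups, whose arrays did not overlap either. Cthrc1 was 3.47-fold higher on day 4 than in intact skin (log2 difference 1.80, SE 0.07, limma adjusted p = 7.39e-05) and 3.01-fold higher than on day 1. On day 1 the difference from intact skin was 0.21 (adjusted p = 0.0707). On the log2 scale the step from day 1 to day 4 was the larger part of its change.

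LRRC17 is a secreted protein with leucine-rich repeats. Lrrc17 read 7.53 and 7.69 in intact skin, 7.42 and 7.07 on day 1 and 9.56 and 9.76 on day 4. Both day 1 arrays lay below both intact arrays, and day 4 lay far above. It was 4.14-fold higher on day 4 than in intact skin (log2 difference 2.05, SE 0.14, limma adjusted p = 3.57e-04), the largest such difference of the 10 genes. It was 5.33-fold higher on day 4 than on day 1, the difference ranked 3 from the top of 19938 genes, a rank that only describes how the gene was picked. The day 1 difference of −0.37 was not called (adjusted p = 0.0983).

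ITGBL1 is a secreted protein whose repeats resemble the stalk of integrin beta chains. Itgbl1 read 8.67 and 8.62 in intact skin, 8.29 and 8.36 on day 1 and 9.25 and 9.30 on day 4. The groups did not overlap. It fell 1.25-fold on day 1 (log2 difference −0.32, SE 0.07, limma adjusted p = 0.0195), a call lost when a day 1 or an intact array was left out (adjusted p = 0.0584 to 0.108), and rose 1.55-fold on day 4 (0.63, SE 0.07, adjusted p = 0.00209), a call kept with any array left out. Of the 8 true integrin beta chains, 6 rose on day 1 and 8 on day 4, and none fell on either day. Itgb2, the chain of leukocyte integrins, was 6.11-fold higher on day 1 (adjusted p = 4.80e-04) and 4.35-fold on day 4 (adjusted p = 0.00138). Itgb6, an epithelial chain, rose 2.04-fold on day 1 (adjusted p = 5.25e-04). It was lower on day 4 than on day 1 by a log2 difference of −0.66 (adjusted p = 0.0303). In that comparison of the days most calls over all genes depended on having the intact arrays in the fit. Itgb8 read 8.81 and 8.55 on day 1 against 8.82 and 8.89 in intact skin (adjusted p = 0.318), so it too had both day 1 arrays below intact skin, as Itgbl1 had.

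CERCAM was first described on brain endothelium and resembles the enzymes that add galactose to collagen. Cercam read 8.12 and 8.13 in intact skin, 7.75 and 7.78 on day 1 and 8.56 and 8.47 on day 4. The SDs were 0.01 to 0.06, and the groups did not overlap. Cercam fell 1.28-fold on day 1 (log2 difference −0.36, SE 0.07, limma adjusted p = 0.0123) and rose 1.31-fold on day 4 (0.39, SE 0.07, adjusted p = 0.011). The fall was not called when a day 1 or an intact array was left out (adjusted p = 0.0547 to 0.0686), and the rise when an intact array was left out (0.0601 and 0.0697). The galactosyltransferase Colgalt1 rose 1.36-fold on day 1 (adjusted p = 0.0318) and 1.47-fold on day 4 (adjusted p = 0.016), and Colgalt2 was not called on either day.

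The course of Lrrc17, Itgbl1, Dpep1, Cercam and Cd34, with day 1 arrays below and day 4 arrays above both intact arrays, was found in 1.93% of all genes measured (384 of 19938). The choice of genes for their shift between the days favours this order. Over the 6 arrays these 5 genes correlated with each other at r = 0.90 to 0.99, and Pdgfra with Pdgfrb at 0.97. Grouping the 5 genes by a shared order favours high values of r. Cthrc1, which is not one of the 5, correlated with them at 0.77 (Dpep1) to 0.96 (Lrrc17). Dpp4 and Pdgfra ran against each other (r = −0.81). These correlations describe arrays that fall into 3 groups and carry no test.

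Other genes with the most similar course over the 6 arrays were sought among 3357 genes with an SD of at least 0.3. Genes with provisional names, such as Gm numbers and Rik names, were left out of this search. Lrrc17 was most like Col14a1, a fibril-associated collagen (r = 0.9988), followed by Gxylt2 and Casq2. Cthrc1 was most like the serine protease Tmprss11b (0.9937), the cardiac actin Actc1 and the fatty acid carrier Fabp5. Cd34 and Itgbl1 shared the same 3 genes, the troponin Tnni1, the mitotic gene Prc1 and the fatty acid elongase Elovl3, at 0.9781 to 0.9931. The mitotic kinase Bub1 led for Dpep1 (0.9836), with Fxyd2 and Platr25 next, and the epidermal gene Rptn led for Cercam (0.9821), with the actin bundler Fscn1 and the mitotic kinase Cdk1. Dpt was most like Ces4a (0.9977), Cers5 and Cped1, Dpp4 most like Rassf8 (0.9909), Ammecr1 and Mexis, Pdgfra most like Nipsnap3b (0.9991), Bicc1 and the collagen hydroxylase Plod3, and Pdgfrb most like Clec2i (0.9994), Cnnm2 and Fchsd2.

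The 10 genes were then set beside fibroblast lists that hold none of them. Of 12 general fibroblast markers 9 rose on day 1 and 9 on day 4, and none fell, with median log2 differences of 0.59 and 0.68 against −0.04 and −0.03 over all genes measured. Their summed linear intensity was 21220 to 23011 in intact skin, 29012 to 34911 on day 1 and 36317 to 37856 on day 4. Limma called 0 of the 12 between the days (5 at an unadjusted p under 0.05). Col1a1 and Col1a2, the chains of type I collagen, were not called on either day (log2 differences of 0.59 and 0.41 on day 4, adjusted p = 0.0752 and 0.108). The proteoglycan Lum rose 2.17-fold on day 1 (adjusted p = 9.37e-04) and 3.07-fold on day 4 (adjusted p = 4.09e-04). Dcn, another proteoglycan of collagen fibrils, was higher by 0.51 and 0.60 on the log2 scale (adjusted p = 0.00402 and 0.00293). The PDGF receptors thus moved in the direction of most of these markers on both days, while Dpp4, Dpep1, Cercam and Itgbl1 fell on day 1, when none of the 12 did. The choice of the 10 genes for their shift between the days favours low day 1 values, so this contrast is only a description.

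Lists of fibroblast subtypes followed. Of 8 measured markers of adventitial and fascia fibroblasts, 3 rose and 1 fell on day 1 and 5 rose and none fell on day 4. The list also held Ly6a and Ly6c1, which matched none of the genes measured. Pi16, a marker of adventitial fibroblasts, rose on day 4 (log2 difference 0.69, adjusted p = 0.0213), and Clec3b, tetranectin, fell on day 1 (−0.42, adjusted p = 0.0179). Cd248 and Mfap5 were not called on either day. Col14a1 in this list took the course of Lrrc17, at 8.53 and 8.55 in intact skin, 8.48 and 8.35 on day 1 and 9.44 and 9.54 on day 4 (1.93-fold higher on day 4 than in intact skin, adjusted p = 7.82e-04). It was the gene of this list that limma called between the days (log2 difference 1.08, adjusted p = 0.0105). As for Itgb6, this call comes from a comparison where most calls depended on having the intact arrays in the fit. Plac8, which leukocytes also express, had the largest rise of the list, 20.8-fold on day 1 (adjusted p = 5.79e-05). Of 8 papillary fibroblast markers 3 fell and none rose on day 1, and 2 fell and 1 rose on day 4. Lef1, a Wnt transcription factor also present in hair follicles, fell 5.64-fold on day 1 (adjusted p = 8.25e-04) and 5.32-fold on day 4 (adjusted p = 0.0013). Crabp1, a retinoic acid carrier, was the papillary gene that rose on day 4 (log2 difference 0.86, adjusted p = 0.0143). Of 12 markers of activated wound fibroblasts 5 rose on day 1 and 8 on day 4, and none fell. Postn, the matrix protein periostin, was higher by 0.36 on day 1 (adjusted p = 0.0332) and by 0.63 on day 4 (adjusted p = 0.00507). Tnc, tenascin C, was 3.34-fold higher on day 1 (adjusted p = 7.99e-04) and 3.13-fold on day 4 (adjusted p = 0.00135). Lrrc15, which read 12.30 and 12.38 in intact skin, 11.40 and 6.95 on day 1 and 10.90 and 9.18 on day 4, was not called on either day (adjusted p = 0.128 and 0.25). Of 8 dermal papilla and sheath markers 2 rose and 4 fell on day 1, and 1 rose and 3 fell on day 4, with log2 differences of −0.36 and −0.37 in Alx4 (adjusted p = 0.0294 and 0.028).

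Markers of other cells in the biopsy moved as well. Of 8 pericyte and smooth muscle markers 3 rose and 1 fell on day 1 and 4 rose and 1 fell on day 4, with summed linear intensities of 3661 to 3896 in intact skin, 5489 to 5593 on day 1 and 4766 to 5581 on day 4. Rgs5, a pericyte gene, was higher by 0.54 on day 1 (adjusted p = 0.00965) and by 0.80 on day 4 (adjusted p = 0.00276), while Cspg4, another pericyte gene, had differences of −0.38 and −0.51 (adjusted p = 0.0366 and 0.0154). The part of pericytes in the rise of Pdgfrb was not tested. All 5 monocyte and macrophage markers and all 5 neutrophil markers rose on both days, and so did 3 of 4 basal keratinocyte markers. Of 5 skeletal muscle markers 5 rose on day 1 and 4 on day 4. Of 6 adipocyte markers 1 fell and none rose on each day. The lists changed together with the 10 genes in the same biopsies, and the part of each cell type in the values of a gene was not tested.

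**Figure D4:**
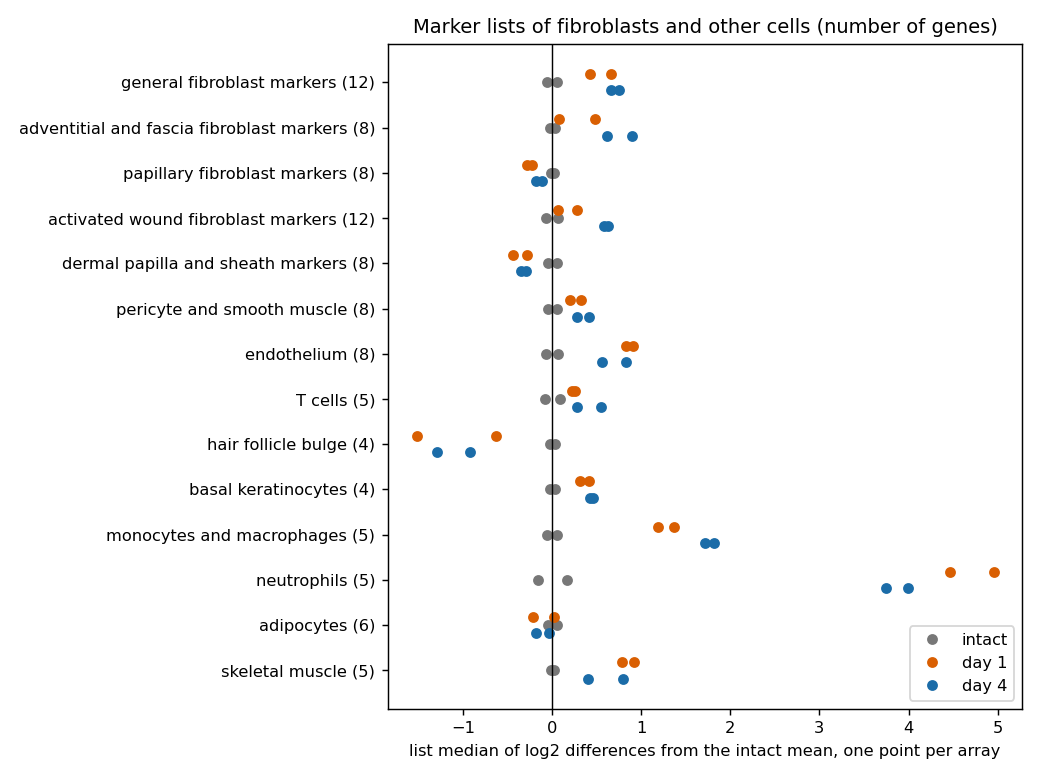
Median log2 difference from the intact mean over the genes of each list (horizontal axis), with a point per array. The activated wound fibroblast list lies at 0.06 and 0.28 on day 1 and at 0.58 and 0.62 on day 4, whereas the lists of papillary fibroblasts, dermal papilla and hair follicle bulge lie left of intact skin on every wound array.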

How the data were processed

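The authors' deposited values are log2 intensities with 2 decimals. Per the submitters' processing notes they come from RMA, with the version and the genome build not given in the sources used here. RMA brings all arrays to a common distribution, so a shift shared by most genes would not be seen. Of 35556 probe sets, 21789 carried 1 gene symbol in the array annotation, 1621 carried several and 12146 were not listed. Genes with several probe sets took the brightest, which gave 19938 genes. Median log2 intensities lay between 6.89 and 6.93, and replicates correlated across genes at r = 0.9861 to 0.9967. The labels give RNA integrity numbers of 7.7 to 9.1. Signal over background was not analysed here, and the number of arrays limits the precision.

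The fit was made in R 4.3.3 with limma 3.58.1 (a mean per group over all 6 arrays, eBayes, 3 residual and 3.4 prior degrees of freedom, two-sided p, Benjamini-Hochberg adjustment over all genes of a comparison, threshold 0.05). Adjusted p-values in the text are from this fit and take no account of how the genes were chosen. The members and the 20 gene lists were chosen with earlier results of these data known. All genes of family lists could be named, the first 4 of each marker list in written order and the ends of a list's range. For each member the 3 genes with the highest Pearson r could be named, with provisional gene names left out. Summed linear intensities are sums of 2 to the power of the log2 value over a list. Alternatives were other normalizations, priors, filters and probe set rules, a replicate block and leaving out each array. Protein sequences were not used here.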

Additional observations from a re-analysis of the deposited data

Results flagged for a closer look

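In 5 genes every day 1 array lay below both intact arrays and every day 4 array above both, an order found in 1.93% of all genes measured (384 of 19938) and one that the choice of the genes favours. The log2 differences on day 1 and day 4 were −0.14 and 0.40 for Cd34, −0.51 and 0.42 for Dpep1, −0.37 and 2.05 for Lrrc17, −0.32 and 0.63 for Itgbl1, and −0.36 and 0.39 for Cercam. The day 1 differences of Cd34 (limma adjusted p = 0.225) and Lrrc17 (0.0983) were not called. The difference between the days was not tested for these genes, because it was used to choose them.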

How the results depend on the processing

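Of 590 log2 differences of members recomputed under the alternatives, 559 kept their direction and their side of the threshold (or, between the days, moved by less than the replicate spread), 24 lost and 3 gained a call and 4 changed sign. Many of the 590 could not move by design. The priors, the filter, the probe set rule, the block and the fit to the compared groups leave the differences as they are and can only change a call. Leaving out an array moves only the differences that use its group. The sign changes concerned values near 0: Cercam in the mean of both wound days became −0.02 under quantile normalization and ranged from −0.0075 (without day 4 wound replicate 1) to 0.0375 with an array left out, and Pdgfrb between the days ranged from −0.155 (without day 1 wound replicate 1) to 0.295, with −0.085 without day 4 wound replicate 2. Cthrc1 on day 1 gained a call under cyclic loess (adjusted p = 0.0414) and without the dimmest 30% of genes (0.044), and Lrrc17 on day 1 without day 1 wound replicate 1 (0.0417). All lost calls came from leaving out an array, which also leaves fewer samples for the spread. With each array left out in turn, the members called higher ranged from 1 to 3 and lower from 2 to 4 on day 1, and higher from 5 to 9 and lower from 0 to 1 on day 4. In the mean of both days they stayed at 5 and 1. No other alternative moved these counts by over 1.5 times.

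The labels number the replicates without saying that a number pairs samples. Deviations of same-numbered arrays from their group means correlated over genes at 0.6853 between the wound days. The values were 0.0139 between day 1 and intact and 0.0227 between day 4 and intact skin. Same-numbered wound arrays thus shared part of their deviation, and the labels do not say why. The main fit did not take the numbers as pairs, so its SEs and p-values hold this shared part. With a replicate block the SE of Pdgfra on day 1 was 0.11, against 0.20 in the main fit, and that of Pdgfrb 0.105 against 0.169. The day 1 SEs of the other members changed little, in either direction. That of Lrrc17 was 0.149 against 0.139, and that of Dpp4 0.078 against 0.081. The replicate block changed no call: 3 members higher and 4 lower on day 1, 9 and 1 on day 4, and 5 and 1 in the mean of both days.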
